A study of Arabidopsis thaliana with 12 samples.

Results

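RNA of Arabidopsis thaliana seedlings was measured after knockdown of RRP41, in the fraction that carries a poly(A) tail. RRP41 belongs to the core of the exosome, a complex that degrades RNA. The comparison held 6 of the 12 libraries of the series: 3 poly(A)+ libraries of induced seedlings (labelled rrp41-i) and 3 poly(A)+ libraries of uninduced seedlings (labelled RRP41). The readout was a deposited signal over 1919 windows of 3000 bp, put forward by the submitters as putative enhancers, each read on both strands (3838 strands). A strand was tested when its signal exceeded 1005 in at least 3 of the 6 libraries, and 2151 strands did so. The smallest signal above 0 differed between the 12 libraries of the series, from 107 to 1005. The largest of these, 1005, was taken as the floor, and lower values were raised to it before taking log2.

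All seedlings were 7 days old, grown on half-strength MS plates, and came from 1 transgenic line with an RNA interference construct against RRP41 that is switched on by 17b-estradiol. Induced seedlings grew on estradiol and uninduced seedlings did not, so estradiol, expression of the construct and loss of RRP41 cannot be told apart. The uninduced seedlings carry the construct too and are not plants without it. No window held RRP41 (0 of 1919), so the depth of the knockdown was not measured. Ribo-minus libraries, from which ribosomal RNA had been depleted while RNA with and without a tail stayed in, were made of the same total RNA. Of these, 3 libraries of induced and 2 of the 3 of uninduced seedlings served here, only to set a change in poly(A)+ RNA beside the change in the other fraction.

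The exosome degrades RNA from its 3' end and trims the ends of stable RNAs such as spliceosomal and nucleolar RNAs. In the plant complex RRP41 itself has kept catalytic activity, which its yeast and human counterparts have lost. RNA sent to the nuclear exosome is often given a short poly(A) tail first, and such tailed RNA can be caught on oligo(dT) beads together with messenger RNA.

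The 6 libraries were alike in depth as far as the files show it. Total signal lay between 55804893 and 58289055 in induced and between 55822358 and 58489785 in uninduced libraries. How the signal was made from reads is not stated, so it is not read as an amount of RNA, read numbers are unknown and no counting interval can be given. The smallest signal above 0 was 181 to 450 in induced and 228 to 353 in uninduced libraries. Log2 values over the tested strands correlated at a Pearson r of 0.975 to 0.985 within the induced libraries, 0.981 to 0.987 within the uninduced ones and 0.947 to 0.958 between the groups. In windows with genes on 1 strand only, that strand held more signal than the other in 93.9% to 95.8% of 1124 windows, so the strands were separated. Of 25 seedling marker genes looked for, only ESB1, a root gene, had a window, so the makeup of the tissue was not checked further.

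Spliceosomal snRNA genes, strands without an annotated gene and pseudogenes were among the largest rises after knockdown. Protein-coding genes gave 151 of the 152 falls, and they were the main gene of 1994 of the 2151 tested strands. Of those 1994 strands 7.57% fell, close to the 7.07% of all tested strands. limma (two-sided, Benjamini-Hochberg adjusted p under 0.05) called 262 of the 2151 tested strands, or 12.2%. Of these, 110 rose (5.11%, in 96 loci once overlapping windows were joined) and 152 fell (7.07%, in 136 loci). Before adjustment, 614 strands had a p under 0.05. The rises had a median log2 change of 0.81 and reached 7.33 with low values at the floor, and 47 exceeded 2-fold. The falls had a median of −0.61 and reached −2.06, and 28 exceeded 2-fold. The 3 induced and the 3 uninduced libraries did not overlap in any of the 262, nor in 742 of all 2151 tested strands (34.5%).

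The split into rises and falls depended on scaling. Median-ratio scaling moved the median change of all tested strands to −0.003, against −0.079 on the deposited scale. It called 164 rises (7.58%) and 101 falls (4.67%) among 2163 strands. All 110 rises were also called there, and 101 of the 152 falls. Of the changes over 2-fold, all 47 rises and 26 of the 28 falls were called under both scalings. On the deposited scale the number of calls was 112 without induced replicate 2, 119 without induced replicate 1, 143 without uninduced replicate 2 and 145 without uninduced replicate 3.

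**Figure D1:**
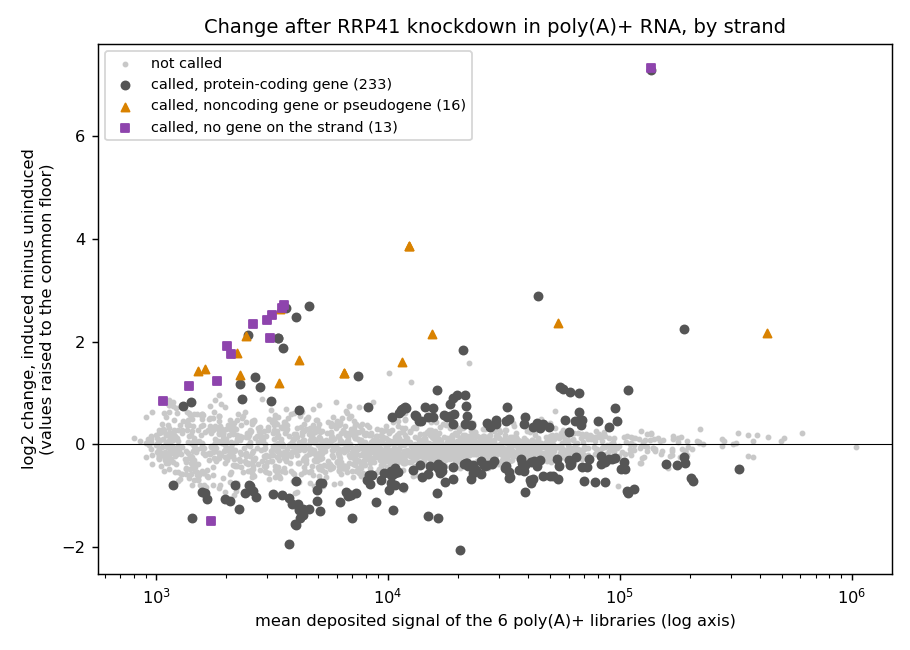
Log2 change (induced minus uninduced, values raised to the floor) of each of 2151 tested strands against its mean deposited signal over the 6 poly(A)+ libraries (log axis). Called strands are marked by what is annotated on them. Falls reach −2.06 and are nearly all protein-coding, as are 1994 of the 2151 tested strands. Called strands with noncoding genes or no gene lie almost only above 0, and 10 of the 12 rises without a gene entered the test through induced libraries alone.

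Tested strands were grouped by what is annotated on them. Of 1994 tested strands whose main gene codes for protein, 82 rose and 151 fell, with a median log2 change of −0.09 over all of them, close to the −0.08 of all tested strands. Of 67 strands whose main gene is noncoding or a pseudogene, 16 rose (23.9%) and 0 fell, with a median of 0.16. Of 90 tested strands with a gene on the other strand only, 12 rose (13.3%) and 1 fell (1.11%), with a median of 0.23. Of these 90 strands, 19 exceeded the floor in libraries of 1 group alone and so had to differ, among them 10 of the 12 rises and the 1 fall. Of the other 71 strands, 2 rose (2.82%) and 0 fell, a share of rises below that of all tested strands. Of the 67 strands, 5 exceeded the floor in 1 group alone, and of the other 62, 12 rose (19.4%) and 0 fell. Among all tested strands, 35 did so, 29 through induced and 6 through uninduced libraries. Strands at the edge of the filter show how little signal that is. UCN held 1915, 1006 and 845 in induced and 721, 915 and 2057 in uninduced libraries and was tested. AT4G30090 held 1258, 649 and 628 in induced and 1346, 791 and 1004 in uninduced libraries and was not.

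Strands without an annotated gene were counted next. Of 1126 such strands, 124, 95 and 117 exceeded the floor in the induced and 82, 65 and 92 in the uninduced libraries, that is 112.0 ± 15.1 and 79.7 ± 13.7 (SD, n = 3 each). The groups did not overlap, and the two-sided exact permutation p was 0.1, the smallest that 3 against 3 libraries allow. With every value above 0 counted instead, the exact permutation p was 0.4. Of 2712 strands with a gene, 2048.3 ± 53.6 exceeded the floor in induced and 2039.0 ± 32.5 in uninduced libraries (SD, n = 3 each), and these groups overlapped (exact permutation p = 0.9).

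**Figure D2:**
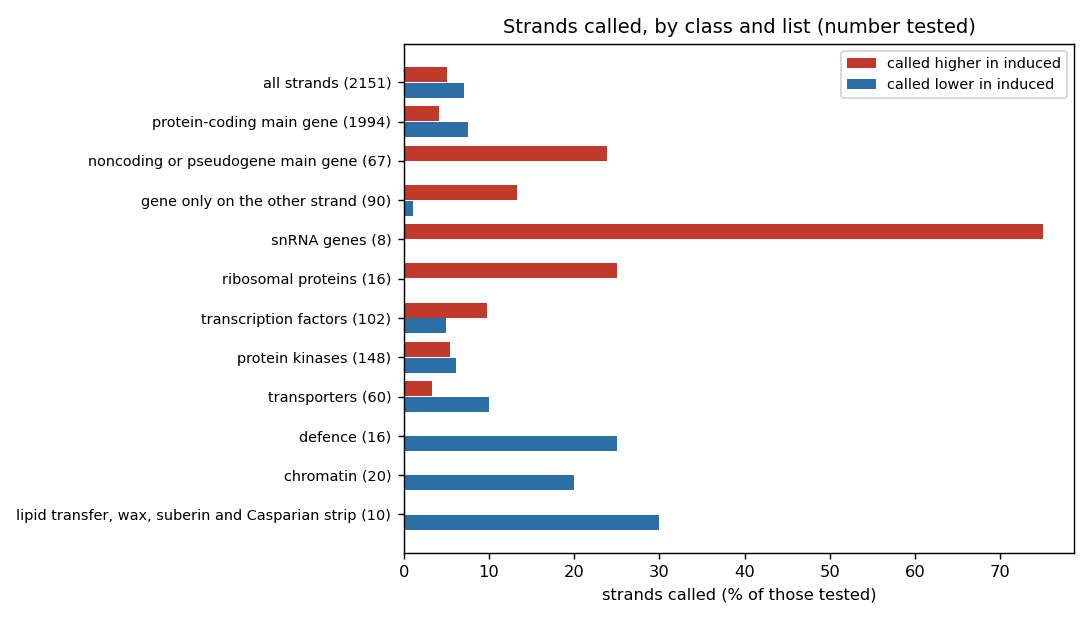
Percent of tested strands called higher (red) and lower (blue) in induced libraries, for all strands and for classes and gene lists, with the number tested in brackets. Of 8 snRNA windows 75.0% were called higher, 1 of them tested through induced libraries alone, against 5.11% of all tested strands; the list counts are small.

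The snRNA strands that rose share a short sequence with a strand that has no annotated gene, and the stretches are set out here to show it. Plant genes for U1, U2, U4 and U6 RNA, the RNA parts of the spliceosome, carry a conserved upstream sequence element ahead of a TATA box. A core of that element, CCCACATCG, was searched on the measured strand of each window, after the results were known. It was on 18 of 2151 tested strands (0.837%), on 9 of the 110 that rose (8.18%) and on 0 of the 152 that fell. Some of these rises, among them AT4G06145 and the overlapping windows opposite ACT8, exceeded the floor in induced libraries alone. Such strands could only rise, so the share among rises is partly fixed by the filter. On the other strand of the window the element was found in 15 of 2151 tested strands (0.697%) and in 1 of the 110 that rose. It lies in the 300 bases around the start (250 before, 50 after) of 30 of 82 annotated snRNA genes (36.6%) and of 19 of 27444 protein-coding genes (0.0692%). The 9 strands that rose stand for 7 loci, and the stretches of 6 of them follow, 5′ to 3′ on the measured strand, from TAIR10 as held by RefSeq. Capitals mark the element and the first TATA found 20 to 50 bases past it.
U2.6, chr3:21004407-21004525, plus strand: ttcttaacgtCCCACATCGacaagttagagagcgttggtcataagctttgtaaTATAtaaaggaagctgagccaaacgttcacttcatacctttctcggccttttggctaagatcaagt
U2.3, chr3:21397586-21397704, minus strand: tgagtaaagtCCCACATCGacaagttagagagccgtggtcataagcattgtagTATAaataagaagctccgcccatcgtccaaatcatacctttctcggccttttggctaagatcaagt
U2.10b/12, chr2:852774-852892, plus strand: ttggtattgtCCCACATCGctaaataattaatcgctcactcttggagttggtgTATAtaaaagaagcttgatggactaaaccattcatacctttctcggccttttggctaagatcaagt
U1.7, chr3:1657674-1657792, plus strand: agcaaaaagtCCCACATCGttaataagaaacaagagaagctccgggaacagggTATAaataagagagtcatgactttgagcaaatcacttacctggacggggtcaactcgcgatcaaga
Opposite ACT8, no gene annotated, chr1:18218540-18218773, minus strand: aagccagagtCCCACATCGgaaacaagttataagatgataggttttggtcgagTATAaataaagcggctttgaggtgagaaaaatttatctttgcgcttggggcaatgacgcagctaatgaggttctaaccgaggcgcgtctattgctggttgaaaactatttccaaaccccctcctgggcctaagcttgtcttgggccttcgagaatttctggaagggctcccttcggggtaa
AT4G06145, an annotated noncoding RNA, chr4:8030108-8030226, plus strand: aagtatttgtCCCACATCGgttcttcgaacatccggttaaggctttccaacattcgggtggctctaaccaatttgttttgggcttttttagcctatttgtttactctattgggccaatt

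In the U2 and U1 stretches and opposite ACT8, 34 bases lie between the element and TATA, and at AT4G06145 no TATA was found between 20 and 50 bases past the element, which there lies ahead of the annotated start of the gene by more than the stretch shown. The stretch opposite ACT8 goes on into a sequence that blastn aligned with annotated U4 genes. Over 153 of 153 bases of U4.2 (chr3:2178191-2178343, minus strand), 149 were identical (97.4%), and the same count held for U4.6. The matched bases of both are set out below, with capitals at the 4 positions where they differ.
Opposite ACT8, chr1:18218540-18218692, minus strand: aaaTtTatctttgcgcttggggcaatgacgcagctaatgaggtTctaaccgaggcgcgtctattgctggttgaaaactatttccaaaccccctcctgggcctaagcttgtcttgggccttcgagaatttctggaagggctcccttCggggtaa
U4.2, chr3:2178191-2178343, minus strand: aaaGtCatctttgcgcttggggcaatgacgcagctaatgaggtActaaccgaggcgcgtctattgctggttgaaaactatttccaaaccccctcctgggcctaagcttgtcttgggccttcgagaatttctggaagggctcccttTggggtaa

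No gene is annotated there, and a match of letters does not show that the stretch is transcribed as a U4 RNA. The other 9 tested strands with the element were not called (log2 change −0.24 to 0.05), and each has a protein-coding gene as its main gene. They include the window of EIF3B-2, which holds U1.4 and U4.5, and that of AT4G35220, which holds U6.6. Another is the window of ARLA1D (log2 change −0.055, limma adjusted p = 0.85). Its stretch ends in the same bases as the U2 stretches above, and AT5G09935, annotated as other than protein-coding, starts in it. The spacing of 34 bases between element and TATA is thus not particular to rises. It was also found at ARLA1D, EIF3B-2, AT3G55640 and AT5G66310.

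U2 RNA pairs with the branch point of introns. The window over U2.6 (chr3:21002933-21005932, plus strand) held 16032, 16328 and 37167 in induced and 1026, 2269 and 1332 in uninduced libraries. Every induced value lay far above every uninduced one, and the log2 change was 3.87 ± 0.38 (SE; limma adjusted p = 0.000342). U2.3 held 69997, 74191 and 128506 in induced and 12307, 23194 and 17267 in uninduced libraries (log2 change 2.36 ± 0.27, limma adjusted p = 0.000722). The groups did not overlap at either gene, as at all 262 called strands. In both windows induced replicate 3 was the highest. Both calls held without each of the 6 libraries.

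The remaining snRNA windows rose less or did not pass. The window of AT2G04435 and U2.10b/12 held 3564, 1812 and 6459 in induced and 0, 1007 and 589 in uninduced libraries (1.79 ± 0.40, adjusted p = 0.0216 by limma). It missed the threshold without induced replicate 1 or any uninduced replicate (adjusted p up to 0.0723). U1 RNA pairs with the 5' splice site. The window of U1.7 and the RING/U-box gene AT3G05670 held 23164, 25250 and 36954 in induced and 13894, 14773 and 14516 in uninduced libraries (0.95 ± 0.16, limma adjusted p = 0.00591). In all, 6 of 8 tested windows with an snRNA gene rose, in 5 loci, and 0 fell, with a median of 1.96, against 5.11% rises and a median of −0.08 over all tested strands. The overlapping windows of U2.6 are 2 of the 6 and hold the same values, and 1 of the 6 exceeded the floor in induced libraries alone. The windows of U1.4 with U4.5 and of U6.6 had log2 changes of 0.03 and −0.19 (adjusted p = 0.893 and 0.253). The U2 stretches above are nearly the same after their start, so signal there may come from several copies.

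snoRNAs guide the modification of ribosomal RNA and are trimmed at their 3' ends. The minus strand opposite AT3G17090, with the noncoding gene AT3G03435 and 3 snoRNA genes, held 6868, 4847 and 7331 in induced and 741, 343 and 441 in uninduced libraries (log2 change 2.64 ± 0.21, limma adjusted p = 0.000158). The window of the snoRNA genes AT5G06565 and AT5G44286 held 3560, 2755 and 2145 in induced and 313, 482 and 459 in uninduced libraries (1.46 ± 0.23, adjusted p = 0.00456). Both were below the floor in every uninduced library, which limits the size of the change and fixes its direction. SE and p there take no spread from the uninduced libraries. Strands of this kind, above the floor in the induced libraries alone, could not be tested without an induced library. Of 6 tested windows with a snoRNA gene, 2 rose (33.3%) and 1 fell (16.7%), against 5.11% rises and 7.07% falls over all tested strands. The 2 rises are those given above, whose direction the filter fixed. Of the other 4 windows 0 rose and 1 fell. The one that fell has AT1G68940, a protein-coding gene, as its main gene (−0.68 ± 0.10). Of 8 windows with a miRNA gene 0 rose and 0 fell. In 53 windows with a tRNA gene 0 rose and 3 fell (5.66%), each with a protein-coding main gene.

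**Figure D3:**
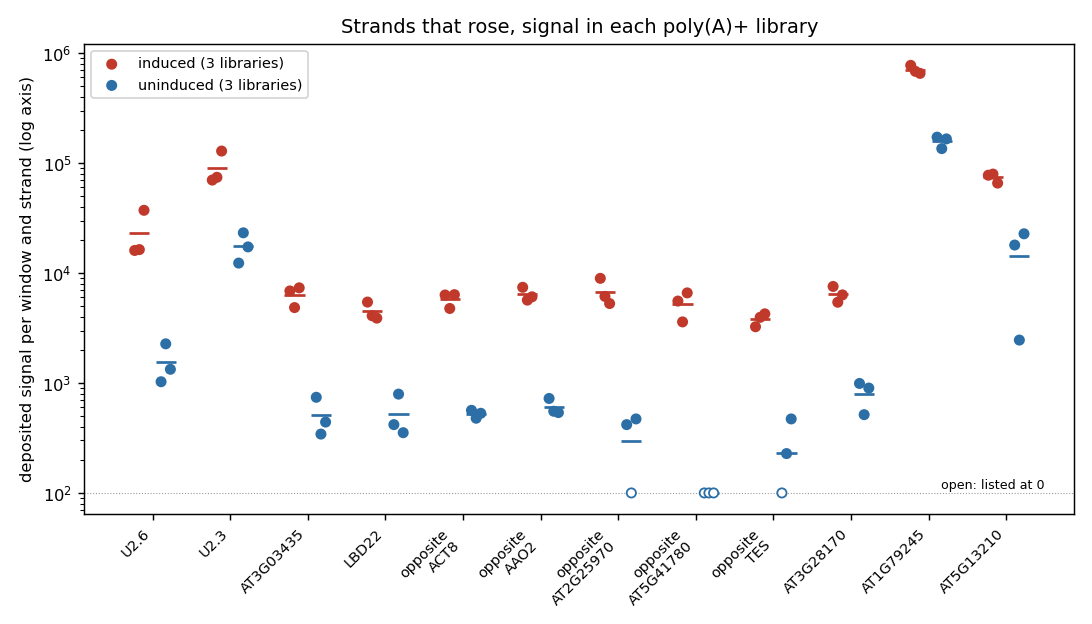
Deposited signal (log axis) in the 3 induced (red, left) and 3 uninduced (blue, right) poly(A)+ libraries at 12 strands that rose; bars are group means and open circles are values listed at 0. The groups are apart at every strand, as at all 262 called strands. All uninduced values lie below the floor at AT3G03435, LBD22, AT3G28170 and the strands opposite ACT8, AAO2, AT2G25970, AT5G41780 and TES.

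In all, 12 strands without an annotated gene rose, in 11 loci. At 10 of them every uninduced value was raised to the floor, so the filter fixed the direction. Their SE and limma p take no spread from the uninduced libraries. At the minus strand opposite ACT8, an actin gene, and AT1G49245 (chr1:18217270-18220269) the signal was 6310, 4759 and 6354 in induced and 564, 478 and 530 in uninduced libraries (log2 change 2.52 ± 0.20, limma adjusted p = 0.000158). An overlapping window gave 2.43 ± 0.20. The ACT8 strand itself averaged 179971 in induced and 191725 in uninduced libraries (log2 change −0.10, adjusted p = 0.54), so the strand with the stretch similar to U4 genes rose while the change of the actin strand did not pass.

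Other strands without a gene rose beside a gene strand that was not called. The plus strand opposite AAO2, an aldehyde oxidase gene, and AT3G43610 (chr3:15516144-15519143) held 7412, 5668 and 6072 in induced and 723, 553 and 538 in uninduced libraries (2.66 ± 0.19, adjusted p = 0.000158 by limma). The strand of those genes had a log2 change of −0.26 (adjusted p = 0.243). The minus strand opposite AT5G41780 was listed at 0 in all 3 uninduced libraries and held 5557, 3592 and 6593 in induced ones (adjusted p = 0.000494 by limma). Opposite TES, a kinesin gene needed for cell division in male meiosis, induced libraries held 3246, 3954 and 4253 and uninduced ones 0, 228 and 471 (1.92 ± 0.20). Opposite the purine permease genes PUP8 and PUP6 they held 3799, 3557 and 2938 against 944, 556 and 789 in uninduced libraries (1.76 ± 0.20). The strands opposite TES and PUP8 were chosen after their values were seen. The gene strands of TES and PUP8 did not pass the filter and were not tested. They averaged 798 and 668 in induced and 952 and 286 in uninduced libraries. For 7 of the 12 rises the other strand was not called, and where it was tested its log2 change lay between −0.26 and 0.16.

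At the other 5, the gene strand rose as well. Opposite AT2G25970, which codes for a KH-domain RNA-binding protein, the signal was 8940, 6126 and 5276 in induced and 418, 0 and 471 in uninduced libraries (2.72 ± 0.23, limma adjusted p = 0.000158), while AT2G25970 itself rose by 0.64 ± 0.07. The strand without a gene was 8.38% of the gene strand in induced and 0.569% in uninduced libraries. Opposite the transcription factor gene WRKY60 it was 5154, 5865 and 3992 in induced and 966, 1035 and 1591 in uninduced libraries (2.06 ± 0.25), and WRKY60 rose by 0.79 ± 0.14. Opposite AT1G73600, a methyltransferase gene, the share was 1.82% in induced and 1.43% in uninduced libraries, and opposite AT5G53850 it was 0.729% in induced and 0.798% in uninduced libraries. At these 2 windows the weaker strand therefore kept almost the same small share of the stronger one; whether reads of the gene strand were placed on the other strand was not tested. The call opposite AT1G73600 was lost without induced replicate 2 or uninduced replicate 1 or 3, and those opposite AT5G53850 and AT3G28170 without any 1 uninduced replicate (adjusted p up to 0.0708, 0.123 and 0.106). The 1 fall on a strand without a gene was opposite AT1G70450, a protein kinase gene, with 901, 725 and 0 in induced and 3658, 2518 and 2475 in uninduced libraries (−1.50 ± 0.22, adjusted p = 0.00306 by limma). Its induced values were all below the floor, so the filter fixed the direction there too.

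A stretch of the minus strand of chromosome 5 stood apart. The 3 windows across it, opposite MLO11 (chr5:21820756-21823755), over AT5G53850 (chr5:21859543-21862542) and over ENODL1 (chr5:21867321-21870320), carried nearly the same added signal in induced libraries. Opposite MLO11 the induced libraries held 323173, 463837 and 28047 and the uninduced ones were listed at 0. ENODL1, an early nodulin-like gene, held 323669, 464693 and 28664 in induced and 985, 510 and 1104 in uninduced libraries. AT5G53850, coding for a dehalogenase-like hydrolase, held 377149, 509682 and 82530 in induced and 52261, 55081 and 51629 in uninduced libraries. The mean gain was 271686, 270130 and 271476 in that order, and induced replicate 3 was the lowest throughout. The call at AT5G53850 (log2 change 2.25 ± 0.55, adjusted p = 0.03) was lost without induced replicate 1 or 2 or any uninduced replicate, with an adjusted p of up to 0.102. In ribo-minus RNA AT5G53850 held 2564001, 3498907 and 2310257 in induced and 15884 and 16491 in uninduced libraries. The 3 windows do not overlap. They were counted as 1 locus because their gains are so alike, and whether they share 1 signal was not tested. Without them limma called 109 rises and 156 falls.

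Several pseudogenes rose more than 2-fold. AT1G79245, a pseudogene opposite MST1 and AT1G79240 (chr1:29802832-29805831, minus strand), held 772879, 682072 and 653313 in induced and 171891, 135310 and 165739 in uninduced libraries (log2 change 2.16 ± 0.11). Its limma adjusted p was 2.16e-05, and the strand opposite it had a log2 change of −0.23 (adjusted p = 0.0532). AT3G25495, a pseudogene of a leucine-rich repeat protein, held 22919, 25110 and 27005 in induced and 4367, 6566 and 6334 in uninduced libraries (2.14 ± 0.17). AT2G05280 rose by 2.12 ± 0.20 and AT3G17110 by 1.40 ± 0.17. Of 34 tested strands with a pseudogene as main gene 5 rose (14.7%, against 5.11% of all tested strands), in 4 loci, and 0 fell. Of these rises, 1 exceeded the floor in induced libraries alone.

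Noncoding RNA genes without a known product followed. AT1G09023 held 20090, 16058 and 15913 in induced and 5420, 5966 and 5584 in uninduced libraries (log2 change 1.61 ± 0.13, limma adjusted p = 0.000158). On the other strand of that window AT1G68940, an armadillo-repeat gene, fell to 31661, 29381 and 36405, against 54388, 46483 and 54983 in uninduced libraries. AT4G06145 rose by 1.44 ± 0.23, with every uninduced value below the floor, so the filter fixed its direction. AT1G71528 and AT5G10965 rose by 1.34 ± 0.24 and 1.19 ± 0.20. AT4G06430 rose by 1.63 ± 0.37, a call lost without induced replicate 1 or 2 (adjusted p up to 0.084). In windows that hold a lncRNA or other noncoding gene, whichever gene is the main one, 6 of 86 rose (6.98%) and 5 fell (5.81%), with a median of −0.02. Over all tested strands 5.11% rose and 7.07% fell. Of the 6 rises, 2 exceeded the floor in induced libraries alone. Among strands above the floor in libraries of both groups, 4 of 84 rose (4.76%), against 4.44% of all 2116 such strands.

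Both strands were called in 12 windows. Both strands rose in 6 of them and fell in 4, and in 2 they moved apart, at AT1G09023 with AT1G68940 and at AT4G32920 (0.57 ± 0.14) with AT4G32915 (−0.33 ± 0.09). The last 2 calls were lost without induced replicate 1 or 2 or uninduced replicate 2 or 3, and that of AT4G32915 also without uninduced replicate 1 (adjusted p up to 0.131) and with median-ratio scaling (0.071). A pair that fell together was ACT11, an actin gene, with 15070, 15800 and 13069 in induced and 21826, 25858 and 22276 in uninduced libraries, and FAD2, the oleate desaturase gene, with 258735, 273473 and 286803 in induced and 392338, 346767 and 399784 in uninduced libraries. Their log2 changes were −0.67 ± 0.11 and −0.47 ± 0.09.

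Among protein-coding genes outside the chromosome 5 stretch, AT5G13210, given last here, had the largest rise. Several of the next largest rises had low signal in uninduced seedlings. AT1G03495, of the HXXXD acyltransferase family, held 4793, 7288 and 11793 in induced and 908, 1138 and 1312 in uninduced libraries (log2 change 2.70 ± 0.31, limma adjusted p = 0.000756). BPC7, a basic pentacysteine transcription factor gene, held 6380, 6302 and 7998 in induced and 1422, 713 and 1295 in uninduced libraries (2.48 ± 0.21). SAG29, a senescence-associated sugar transporter gene, held 24179, 25291 and 50420 in induced and 7076, 10804 and 8888 in uninduced libraries (1.84 ± 0.27). Induced and uninduced values did not overlap at any of the 3, which holds for all 262 called strands and for 34.5% of all tested strands. AT3G28170, an uncharacterized gene, held 7546, 5421 and 6322 in induced and 990, 515 and 899 in uninduced libraries, the uninduced ones all below the floor (2.66 ± 0.20). AT5G13210, conserved and of unknown function, held 77465, 79326 and 65699 in induced and 17958, 2455 and 22727 in uninduced libraries (2.89 ± 0.69, adjusted p = 0.0272 by limma). This last call was lost without induced replicate 1 or 2 (adjusted p up to 0.0955), and uninduced replicate 2 was far below the other uninduced ones.

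Genes for the ribosome and its assembly were small lists. Of 16 tested strands with a ribosomal protein gene 4 rose, in 3 loci, and 0 fell, with a median of 0.10, against 5.11% rises over all tested strands. AT3G09680, a gene for a small-subunit protein, held 4457, 5695 and 6070 in induced and 1238, 1646 and 992 in uninduced libraries (2.08 ± 0.24, limma adjusted p = 0.000753). RPSAb rose by 0.72 ± 0.14 and RPS5B by 0.35 ± 0.09; the first was lost without induced replicate 2 (adjusted p = 0.054) and the second without any 1 of the 6 libraries (up to 0.124). Of 6 strands with genes for ribosomal RNA processing 3 rose, a nucleolar GTP-binding protein gene AT1G50920 (0.46 ± 0.07), a NOP56-like gene AT5G27120 (0.54 ± 0.12) and a TSR1-like gene AT1G42440 (0.41 ± 0.10). AT5G27120 was lost without induced or uninduced replicate 2, and AT1G42440 without induced or uninduced replicate 1 or 2 (adjusted p up to 0.139). The 2 overlapping windows over the methyltransferase gene AT5G15390 fell, and median-ratio scaling called neither.

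Genes that handle RNA were taken by list. The exosome itself was represented by CER7, which codes for a variant of the core subunit RRP45, and EMB2763, which codes for the exosome-associated nuclease RRP44A. CER7 held 13230, 13422 and 15203 in induced and 11837, 13196 and 13492 in uninduced libraries (0.12 ± 0.11, limma adjusted p = 0.51). EMB2763 held 14114, 15191 and 12611 in induced and 15306, 13322 and 13300 in uninduced libraries (−0.001 ± 0.12, adjusted p = 0.994). For both, induced and uninduced values overlapped. Of 31 strands with a splicing or RNA-binding gene 3 rose (9.68%, against 5.11% of all tested strands) and 1 fell, led by SR34b, a serine/arginine-rich splicing factor gene (0.96 ± 0.10, adjusted p = 0.000517). PAPS2, a poly(A) polymerase gene, rose by 0.56 ± 0.13 and was the 1 called strand of 24 with an RNA helicase or decay gene; the call was lost without induced replicate 1 or uninduced replicate 2 (adjusted p up to 0.0864).

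The counts of rises and falls among regulatory genes shifted with the scaling, as over all tested strands, of which 5.11% rose and 7.07% fell. Of 102 strands with a transcription factor gene 10 rose (9.8%), in 8 loci, and 5 fell (4.9%). With median-ratio scaling 15 rose and 4 fell, so rises outnumbered falls under both scalings. The zinc finger gene AT2G39580 rose by 0.72 ± 0.08 and NAC044 by 0.54 ± 0.09, while BZIP61 fell by 0.76 on the log2 scale, to 30167, 28698 and 33473 in induced libraries, against 48749, 52758 and 54596 in uninduced ones. Of 148 strands with a kinase gene 8 rose (5.41%) and 9 fell (6.08%), near the shares of all tested strands. With median-ratio scaling 11 rose and 4 fell. AT5G63370 held 79270, 71585 and 74490 in induced and 33150, 32565 and 38733 in uninduced libraries (1.11 ± 0.09, limma adjusted p = 0.000158), and AT3G45420, a lectin receptor kinase gene, rose by 1.31 ± 0.19. CYCD2;1, a cyclin gene of the G1 phase, rose by 0.71 ± 0.15, a call lost without uninduced replicate 2 (adjusted p = 0.0561).

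The largest fall was at AT3G58550, which codes for a lipid-transfer protein. It held 6993, 6944 and 9749 in induced and 26619, 30406 and 42269 in uninduced libraries (log2 change −2.06 ± 0.19, limma adjusted p = 0.000322). In these whole-seedling samples fewer cells of a type and less RNA per cell cannot be told apart. ESB1, a dirigent-like gene needed to place lignin in the Casparian strip of the root endodermis, held 4177, 4866 and 4708 in induced and 8057, 8323 and 10915 in uninduced libraries (−0.98 ± 0.17, adjusted p = 0.00629). AT3G24020, another dirigent-like gene, held 2040, 1143 and 3086 in induced and 3978, 7286 and 6484 in uninduced libraries (−1.57 ± 0.37, adjusted p = 0.0257). Its call was lost without induced replicate 1 or 2 or uninduced replicate 2 or 3 (adjusted p up to 0.0943). These 3 were the called strands among 10 with lipid-transfer, wax, suberin or Casparian strip genes, where 0 rose and the median was −0.36, against 7.07% falls and a median of −0.08 over all tested strands.

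Transport and metabolism followed. Of 60 strands with a transporter gene 2 rose, both over ABCF1, and 6 fell, or 10%, against 7.07% of all tested strands. With median-ratio scaling 3 rose and 3 fell. ABCG42, of the pleiotropic drug resistance transporters, held 2036, 1992 and 1867 in induced and 4674, 5101 and 8052 in uninduced libraries (−1.56 ± 0.23, limma adjusted p = 0.00306). ALN codes for allantoinase, an enzyme of purine catabolism, and held 4507, 3182 and 3694 in induced and 11281, 8771 and 10637 in uninduced libraries (−1.44 ± 0.18). CPD, the cytochrome P450 of brassinosteroid synthesis, held 68859, 77250 and 74238 in induced and 124114, 150339 and 153772 in uninduced libraries (−0.95 ± 0.10, adjusted p = 0.000402). AT5G17460, an amidotransferase subunit gene, fell by 1.43 and AT5G02430, a WD40-repeat gene, by 1.30 on the log2 scale. Of the genes named here, all 5 falls were called without each library. ADF11, an actin depolymerizing factor gene, held 0, 0 and 371 in induced and 2288, 3123 and 2766 in uninduced libraries (−1.43 ± 0.20, limma adjusted p = 0.00256), below the floor in every induced library. The filter thus fixed its direction, and SE and p take no spread from the induced libraries. Several large falls rested on fewer libraries. AT1G14260, a RING/FYVE/PHD zinc finger gene, held 1516, 1044 and 1581 in induced and 8777, 2277 and 7142 in uninduced libraries (−1.95 ± 0.46), and was lost without induced replicate 1 or 2 or uninduced replicate 1 or 3 (adjusted p up to 0.102). ANNAT3, an annexin gene, held 2324, 1759 and 2929 in induced and 5946, 4125 and 8703 in uninduced libraries (−1.39 ± 0.30), and was lost without induced replicate 1 or 2 or uninduced replicate 3 (up to 0.075).

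**Figure D4:**
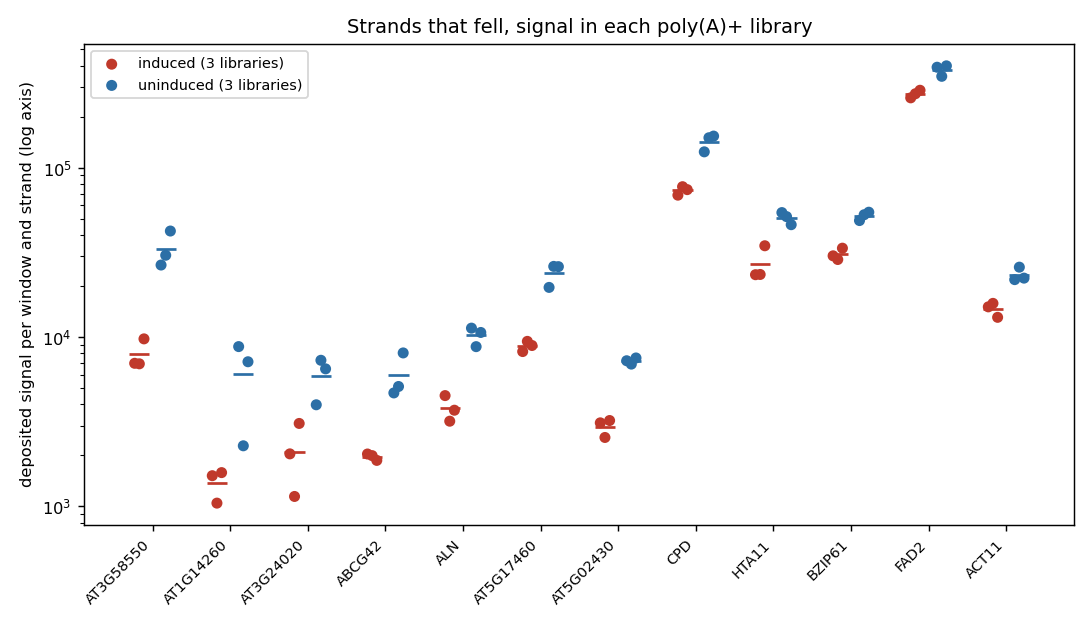
Deposited signal (log axis) in the 3 induced (red, left) and 3 uninduced (blue, right) poly(A)+ libraries at 12 strands that fell; bars are group means. At none of the strands does an induced value reach an uninduced one, and the groups are apart at all 262 called strands. AT1G14260 and AT3G24020 show the widest spread.

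Among 20 tested strands with chromatin genes 0 rose and 4 fell (20%), in 3 loci, with a median of −0.11, against 7.07% falls and a median of −0.08 over all tested strands. With median-ratio scaling 3 of the 20 fell. HTA11, a gene for the histone variant H2A.Z, held 23338, 23414 and 34593 in induced and 54325, 51422 and 46077 in uninduced libraries (−0.92 ± 0.15, limma adjusted p = 0.00514). HTR12, the gene for the centromeric histone H3, held 4369, 3177 and 4070 in induced and 6499, 6470 and 6520 in uninduced libraries (−0.76 ± 0.17, adjusted p = 0.0227), in overlapping windows. HDA15, a histone deacetylase gene, fell by 0.33 on the log2 scale and was not called with median-ratio scaling (adjusted p = 0.0752). Of 17 strands with cell-cycle or chromosome segregation genes, 2 rose and 2 fell (11.8% each), and with median-ratio scaling 2 rose and 1 fell. WYR, an inner centromere protein gene, held 2203, 2646 and 2484 in induced and 4619, 5402 and 5137 in uninduced libraries (−1.05 ± 0.17, adjusted p = 0.00561). CENP-C, a gene for a centromere protein, fell by 0.56, and missed the threshold with median-ratio scaling (adjusted p = 0.0651). These are the 2 falls of that list. Its rises were CYCD2;1, given above, and AT3G21480, a gene for a BRCT-domain DNA repair protein (0.75 ± 0.20, adjusted p = 0.0393), a call lost without any 1 library (adjusted p up to 0.163). HTR12 was lost without induced replicate 2 or any 1 uninduced replicate (adjusted p up to 0.0787), CENP-C without these or induced replicate 1 (up to 0.139) and HDA15 without any 1 library (up to 0.15). HTA11 and WYR were called without each library.

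Hormone, stress and photosynthesis lists were small, and their shares are set beside the 7.07% falls of all tested strands. Of 13 strands with auxin genes 0 rose and 2 fell (15.4%): ARF17, an auxin response factor gene (−0.53 ± 0.14), and DFL1, a gene for a GH3 enzyme that conjugates auxin (−0.68 ± 0.18). DFL1 was not called with median-ratio scaling (adjusted p = 0.068), and it was lost without induced replicate 1 or 2 or uninduced replicate 2 or 3 (up to 0.129). ARF17 was lost without these or uninduced replicate 1 (up to 0.121). The auxin receptor gene TIR1 was counted with the ubiquitin and F-box genes below and not among these 13. It fell by 0.28, missed the threshold with median-ratio scaling (adjusted p = 0.0889) and was lost without the same libraries as ARF17 (up to 0.103). Of 16 strands with genes listed by defence terms 0 rose and 4 fell (25.0%); ESB1 and AT3G24020 are 2 of them, so this list is not separate from the one above. Of 5 strands with other hormone genes and 5 with light, clock or flowering genes none was called, and of 4 with photosynthesis genes 1 fell (25.0%). Of 25 with heat shock or chaperone genes 1 rose and 1 fell (4.0%), and of 53 with ubiquitin or F-box genes 2 rose and 2 fell (3.77%). Of 30 with cell wall genes 1 rose and 2 fell (6.67%). Of these falls, 1 exceeded the floor in uninduced libraries alone and so could only fall. Of the other 29 strands 1 rose and 1 fell (3.45%). Of 64 strands with cytochrome P450 or redox genes 1 rose and 4 fell (6.25%). Of 39 with genes for organelle RNA and translation 1 rose and 3 fell (7.69%).

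The structure of the protein-coding genes was set beside the calls. The end of the gene lay in the window at 75.6% of the 82 protein-coding rises, 78.1% of the 151 falls and 73.4% of all 1994 protein-coding strands tested. The start lay in it at 25.6% of rises, 29.8% of falls and 29.6% of all. A single exon was annotated for 11.0% of rises, 6.62% of falls and 9.08% of all, and the median exon number was 5 in rises, 6 in falls and 7 over all. These shares are given as a description.

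In ribo-minus RNA of the same seedlings most of the called strands moved in the same direction. Of the 110 rises 91 were also higher in induced ribo-minus libraries (82.7%), and of the 152 falls 142 were also lower (93.4%). Over all 2151 tested strands 29.1% were higher and 70.0% lower, with a median ribo-minus change of −0.17. These values were not rescaled, and agreement in direction was not tested with median-ratio scaling. The median log2 change of the rises was 0.81 in poly(A)+ and 0.39 in ribo-minus RNA, and that of the falls −0.61 and −0.51. One uninduced ribo-minus library was left out because its 2 strand columns were the same. The remaining 11 libraries were fitted with an interaction term.

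The change itself differed between fractions (limma interaction, adjusted p under 0.05) at 17 of 2340 strands, or 0.726%, of which 14 are among the 262 called strands. U2.6 had a log2 change of 3.87 in poly(A)+ RNA and 0.05 in ribo-minus RNA, a difference of 3.82 ± 0.47 (SE, adjusted p = 0.00302). In ribo-minus libraries its signal was 230663, 263325 and 205147 in induced and 219852 and 227472 in uninduced seedlings. U2.3 differed by 2.34 ± 0.37 (adjusted p = 0.00908), with 751260, 907579 and 676143 in induced and 823612 and 705509 in uninduced ribo-minus libraries. The strand opposite ACT8 held 29251, 46218 and 21428 in induced and 25381 and 26508 in uninduced ribo-minus libraries and differed by 2.27 ± 0.36 (adjusted p = 0.00908). The calls at U2.3 and opposite ACT8 were lost without uninduced ribo-minus replicate 2, when limma called 5 strands in all, and without uninduced ribo-minus replicate 3 it called 32. At these 3 strands induced and uninduced ribo-minus values overlapped, while the poly(A)+ values, as at every called strand, did not.

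**Figure D5:**
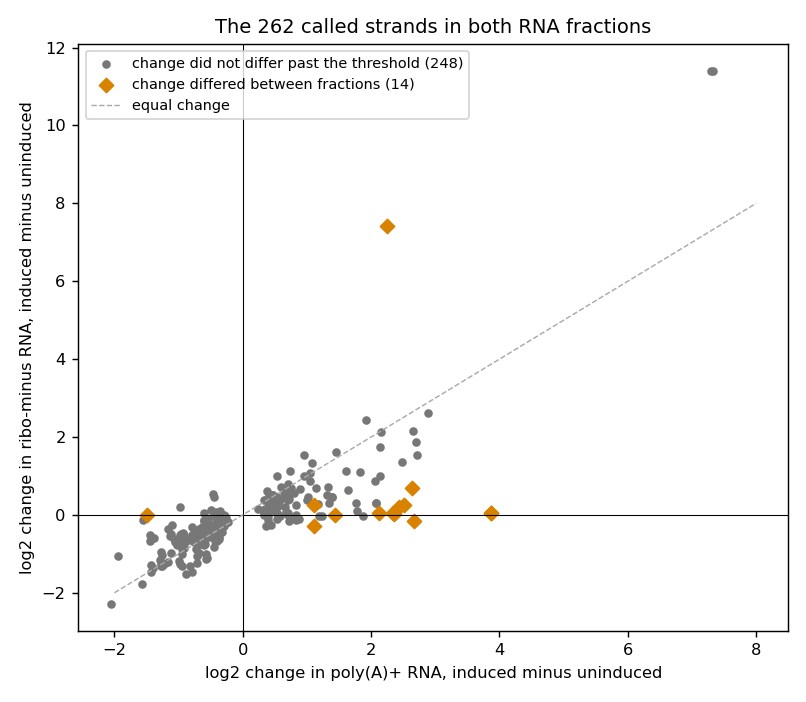
Log2 change (induced minus uninduced) in poly(A)+ RNA against that in ribo-minus RNA for the 262 called strands, with the line of equal change. The 14 diamonds differed between fractions by limma's interaction test. U2.6 lies at 3.87 in poly(A)+ and 0.05 in ribo-minus RNA. At the top right lie the windows opposite MLO11 and over ENODL1 of the chromosome 5 stretch. AT5G53850, also of that stretch, lies at 2.25 in poly(A)+ and 7.41 in ribo-minus RNA and is a diamond.

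Other rises were shared by both fractions. AT1G79245 rose by 2.16 in poly(A)+ RNA and had a change of 2.13 in ribo-minus RNA, and their difference did not pass (adjusted p = 0.979). The strands opposite AAO2 and TES had ribo-minus changes of 2.16 and 2.45, and AT3G25495 and AT5G13210 of 1.75 and 2.62, and none differed between fractions past the threshold. Among the falls, AT3G58550 had −2.29, ESB1 −1.27 and CPD −1.02 in ribo-minus RNA. Of the 6 snRNA windows that rose in poly(A)+ RNA the median ribo-minus change was 0.07, against 0.38 for the 16 rises with a noncoding or pseudogene main gene and 0.50 for the 12 without a gene. That median is set by the U2 windows, whose ribo-minus changes were 0.02 to 0.09. The snRNA window with LBD22 as main gene had 0.995. The window of U1.7 had 1.53, against 0.95 in poly(A)+ RNA, and this difference did not pass (limma interaction, adjusted p = 0.566).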

How the data were processed

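The authors deposited a whole-number signal per 3000 bp window and strand for each library; how it was made from the reads is not given in the sources used here. The submitters' processing notes name TAIR10, Cuffdiff, Cufflinks 2.1.1, TopHat2 2.0.9 and CASAVA 1.8.2. Groups and replicate numbers came from the labels. Windows were annotated with RefSeq genes of the same nuclear assembly; the main gene of a strand is the annotated gene that covers most of it. Values were raised to 1005, taken to log2 without rescaling and fitted with limma 3.58.1 in R 4.3.3 (lmFit, eBayes with trend), adjusted by Benjamini-Hochberg over all tested strands. The fits were tested on simulated data. Sequences came from RefSeq (TAIR10.1), aligned with blastn 2.17.0. Of the stretches with the element, 1 is not reported here. Figures used Python 3.11.15 and matplotlib 3.10.9. Named strands do not overlap between groups and are, by locus, the 15 largest rises and falls, the 8 largest each way above the floor in all 6 libraries, up to 4 of lowest p in each gene list, and all exosome genes tested; others were chosen after their values were seen. The members, gene lists and tests were chosen with earlier results of these data known. Same-numbered induced and uninduced libraries were not treated as pairs, since their deviations from the group means correlated at 0.082, 0.089 and −0.073. The labels call the replicates biological.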

Additional observations from a re-analysis of the deposited data

Results flagged for a closer look

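The change after induction differed between poly(A)+ and ribo-minus RNA, by limma's interaction test, at 13 strands named above; causes were not tested. It was larger in poly(A)+ RNA at U2.6, by 3.82 in both overlapping windows, at AT3G28170 by 2.82, at U2.3 by 2.34, opposite AT5G41780 by 2.29, opposite ACT8 by 2.27 and 2.22 in overlapping windows, at AT2G05280 by 2.07, at AT3G03435 by 1.95, at AT4G06145 by 1.44 and at AT5G63370 by 0.87 (log2).

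Opposite AT1G70450 the signal fell in poly(A)+ RNA, while every ribo-minus value used lay below the floor, which sets that change to 0; the difference was −1.50. At AT5G53850 the rise was larger in ribo-minus RNA, with a difference of −5.16. U2.6, AT3G28170, AT2G05280 and the strand opposite AT5G41780 kept their call without each of the 11 libraries. U2.3, AT3G03435, AT5G53850 and the strand opposite ACT8 lost it without uninduced ribo-minus replicate 2 (adjusted p up to 0.0867). AT4G06145 kept it in 1 of 8 such fits, the strand opposite AT1G70450 in 6 of 8 and AT5G63370 in 6 of 11. Values below the floor were raised to it, so the differences opposite AT5G41780, AT1G70450 and ACT8 and at AT4G06145, AT3G28170, AT2G05280 and AT3G03435 are limited by it. With median-ratio scaling AT3G03435, AT2G05280, AT4G06145 and the strands opposite ACT8, AT5G41780 and AT1G70450 missed the threshold (adjusted p between 0.0997 and 0.635).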

How the results depend on the processing

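Of the 262 calls, 211 were also made with median-ratio scaling, and of 110 named called strands 54 kept their call under every alternative in which they were tested and none changed direction. Falls were 93 with strands above the floor in 1 library tested, 95 for limma without trend, 58 of 136 calls with log2(value + 1) and no floor, and 101 with median-ratio scaling. Leaving out 1 library gave 112 to 304 calls, 60 to 99 rises and 52 to 205 falls. With replicate number as a block, limma called 246 strands (106 rises, 140 falls, 223 of them among the 262) and 13 differences between fractions. Under the block 19 named calls were lost. Differences larger in ribo-minus RNA were 5 with median-ratio scaling, and with the library of equal strand columns 8 strands were called, 7 larger in poly(A)+ and 1 in ribo-minus RNA. Leaving out 1 library gave 5 to 32, 5 to 23 and 0 to 10 in that order. The difference in strands without a gene above the floor was 32.3. It was 18.3 with a doubled floor (exact permutation p = 0.1) and 128.7 with every value above 0 counted (exact permutation p = 0.4). The difference in strands with a gene above the floor was −11.3 with a doubled floor, 30.3 with median-ratio scaling and 44.0 with every value above 0 counted. Without 1 library it was −16.5 to 37.0. EMB2763 had a change of 0.074 with median-ratio scaling and −0.064 to 0.07 without 1 library, and EIF3B-2 −0.087 to 0.15. The causes were not tested. Leaving out the chromosome 5 windows was chosen after seeing the data. Signal near the floor limits what can be seen on strands without a gene.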
